A study of Mus musculus with 12 samples.

Results

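Liver of mice that had gone without food for 12 hours was compared with liver of fed mice on 6 of the series' 12 arrays, 3 per group. The arrays were those titled 12h-1 to 12h-3 and 0h-1 to 0h-3, called here replicates 1 to 3 of the fasted and of the fed group. They were 2-colour Agilent oligonucleotide arrays, on which each spot holds 1 probe, and 20280 of 21446 spots were used after 1075 control and 91 retired spots were left out. The other 6 arrays, from mice fasted for 24 and 72 hours, entered the fit only to estimate the spread of each probe and for 1 comparison of time points. All mice were male, of the FVB strain and 6 weeks old, carried no stated genetic change and were killed at the same hours of the morning. The fed mice had free access to chow, and the fasted mice had their chow removed and were kept in metabolic cages without bedding to eat. An infrared lamp warmed mice only from 24 hours on, so that neither group here received it. Each array carried the RNA of 2 livers, pooled and labelled with Cy3, so that the SD between arrays does not give the spread between mice. On the same spots lay a reference labelled with Cy5, pooled from 6 livers that by their numbers are those of the fed arrays. The dyes were not exchanged. Values are log2 ratios of sample over reference, and a difference between groups is a log2 fold change.

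In the first hours without food the liver releases glucose from glycogen and then makes it from lactate, glycerol and amino acids, while fatty acids from adipose tissue become its main fuel. Falling insulin and rising glucagon and glucocorticoids drive these steps, together with PPAR-alpha, a nuclear receptor that fatty acids activate and that controls genes of fatty-acid oxidation and ketone-body formation. Synthesis of fatty acids and cholesterol, which the SREBP transcription factors control, is known to be turned down. The 6 hepatocyte marker genes with a probe were well above background on all 6 arrays, with 8 of 8 probes.

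The arrays differed in quality. The median Cy3 signal lay 7.59, 10.1 and 10.1 times above local background on the fed arrays, and 5.34, 4.72 and 8.28 times on the fasted arrays. On replicate 2 of the fasted group, the 99th percentile of the Cy3 signal was 948, against 5958 to 17083 on the other 5 arrays, so that strong signals in particular were low. The SD of the log2 ratios was 0.998 on this array and 0.147 to 0.452 on the others. Over all probes, its ratios correlated with those of fasted replicates 1 and 3 at r = -0.15 and -0.18, and replicates 1 and 3 correlated with each other at r = 0.88. Fed replicates 1 and 2 also correlated with fasted replicate 1 (r = 0.62 and 0.66) and with replicate 3 (r = 0.50 and 0.59), whereas fed replicate 3 did not (r = -0.03 and -0.02), and all ratios share the reference. Replicate 3 of the 24 hours group, with a Cy3 signal 3.50 times above background, correlated with it at r = 0.62. These arrays are called the low-signal arrays below. Spots marked by the scanner software as outliers were left out, which took 24.7% and 14.1% of the probes on fed replicates 2 and 3 and at most 4.28% on the other 4 arrays. The images were quantified on 3 days. Fed replicate 1 and fasted replicate 2 shared the first, fed replicates 2 and 3 the second, and fasted replicates 1 and 3 fell on the third, so that without fasted replicate 2 the day and the group cannot be told apart.

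Mt1 and Mt2, the metallothionein genes with a named probe, were strongly higher after 12 hours of fasting, and their probes were the only ones that passed the test when all arrays were used. Metallothioneins are small cysteine-rich proteins that bind zinc and copper, and glucocorticoids and metals are known to induce them in liver. With limma, 2 of 19840 probes tested were called higher (0.0101%) and 0 lower (0%), the criteria being an adjusted p below 0.05 and a size of 1.4-fold or more. Without regard to size, 774 probes had an unadjusted p under 0.05. Both genes lie close together on chromosome 8, and the sequence before their starts is shown because they rose together. It runs from 250 bases before to 50 after the start in RefSeq, build GRCm38.p6, plus strand, at chr8:94178839-94179138 for Mt1 and chr8:94172368-94172667 for Mt2, with matches to the core of the metal response element, TGCACNC or TGCGCNC, on either strand in capitals:
Mt1: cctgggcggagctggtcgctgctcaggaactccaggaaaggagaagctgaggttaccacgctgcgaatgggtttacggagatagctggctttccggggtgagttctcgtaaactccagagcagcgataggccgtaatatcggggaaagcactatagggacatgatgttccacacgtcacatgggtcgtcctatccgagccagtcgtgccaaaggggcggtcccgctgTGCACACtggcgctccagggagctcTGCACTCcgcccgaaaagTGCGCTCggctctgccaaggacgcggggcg
Mt2: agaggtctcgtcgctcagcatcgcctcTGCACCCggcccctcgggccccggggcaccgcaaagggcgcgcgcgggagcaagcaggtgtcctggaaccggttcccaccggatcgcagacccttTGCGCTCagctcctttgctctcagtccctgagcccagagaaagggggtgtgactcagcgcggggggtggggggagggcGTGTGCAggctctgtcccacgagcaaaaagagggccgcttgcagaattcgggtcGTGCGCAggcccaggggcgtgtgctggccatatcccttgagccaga

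The Mt1 promoter held 3 matches and that of Mt2 held 4, and 28.2% of the 27025 genes with a promoter in the table held at least 1. With any base at the fourth position, TGCNCNC, there were 3 and 6, against 53.6% of all genes, the narrower core having been added once these counts were known. The letters of the cAMP response element, TGACGTCA, and of the glucocorticoid half-site, AGAACA, were in neither, against 2.03% and 21.3% of all genes. Of the 21 genes that were called or separated furthest on all arrays, metallothioneins included, 15 had a promoter in the table, of which 7 (46.7%) held the metal core, 5 (33.3%) the half-site and 0 the cAMP element.

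For Mt1 (probe 19680), the log2 ratios were -0.24, -0.09 and -0.25 on the fed arrays, and 2.79 and 2.85 on fasted replicates 2 and 3. The spot of fasted replicate 1 had been marked as an outlier and that of replicate 3 was saturated. Every fasted value lay far above every fed one, and the difference was 3.02 (SE 0.24), or 8.09-fold (limma, adjusted p = 0.00469), of which the saturated spot gives only a lower limit. For Mt2 (probe 2910, listed under a provisional gene name), the log2 ratios were 0.47, -0.45 and -0.09 on the fed arrays and 4.05, 3.12 and 3.59 on the fasted ones. The groups did not overlap, and the difference was 3.61 (SE 0.43), or 12.2-fold (limma, adjusted p = 0.0496). Without fasted replicate 2, the log2 fold change of Mt2 was 3.85 (adjusted p = 0.0481). Mt1 was then left with the saturated spot of replicate 3 alone, at least 8.26-fold above the fed mean, and its call in that fit has no replicate behind it. The call was lost for Mt1 without fed replicate 1 or 3 or fasted replicate 3, and for Mt2 without any 1 of the fed arrays, fasted replicate 1 or 3, replicate 2 of the 24 hours group or replicate 1 or 2 of the 72 hours group, with adjusted p up to 0.0659 and 0.432 and log2 fold changes of at least 2.99 and 3.38. The increase on replicate 2 itself appeared after normalization. There, the Mt1 spot had a Cy3 signal of 4527 and a Cy5 signal of 4861 before any correction, whereas the signals on replicate 3 were 65199 and 5502.5. Its rank among the Cy3 signals needs no such correction, and Mt1 stood 36th, 25th and 32nd from the top of 20280 probes on the fasted arrays, against 271st, 1119th and 702nd on the fed arrays. Mt2 stood 71st, 67th and 53rd, against 739th, 3330th and 1566th.

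Acot1 missed the threshold on all arrays and passed it without fasted replicate 2. The gene (probe 8324, listed as Cte1) encodes a cytosolic thioesterase that frees fatty acids from acyl-CoA and is a known target of PPAR-alpha. Its log2 ratios were -0.01 and 0.07 on fed replicates 1 and 2 and 2.25, 1.68 and 1.94 on the fasted arrays, and the spot of fed replicate 3 was left out. The groups did not overlap. The difference was 1.93 (SE 0.23; adjusted p = 0.0575) on all arrays and 2.07 (SE 0.21; adjusted p = 0.0388) without fasted replicate 2. In that fit, 3 of 19919 probes (0.0151%) were called higher and 0 lower (0%), and 1124 had an unadjusted p under 0.05. An unadjusted p under 0.01 with a 1.4-fold difference was then reached by 145 probes upward (0.728%) and 80 downward (0.402%), and 3113 (24.1%) and 2797 (21.7%) of 12907 probes had the remaining 2 fasted arrays above or below all fed ones. As the 3 called probes are the whole of this count, Acot1 is named although it fell outside the rule for named genes.

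Below the corrected threshold, 12295 probes were measured on all 6 arrays, of which 802 (6.52%) had every fasted array above every fed array and 753 (6.12%) every fasted array below. An unadjusted p under 0.01 with a 1.4-fold change was reached by 76 probes in the upward (0.383%) and 56 in the downward direction (0.282%) of all 19840 tested, and both criteria together were met by 64 and 41 probes. The 10 genes with the largest difference in each direction are described here with their values. Their adjusted p was 0.958, save for Mt2, so that on all arrays these differences did not pass the correction.

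**Figure D1:**
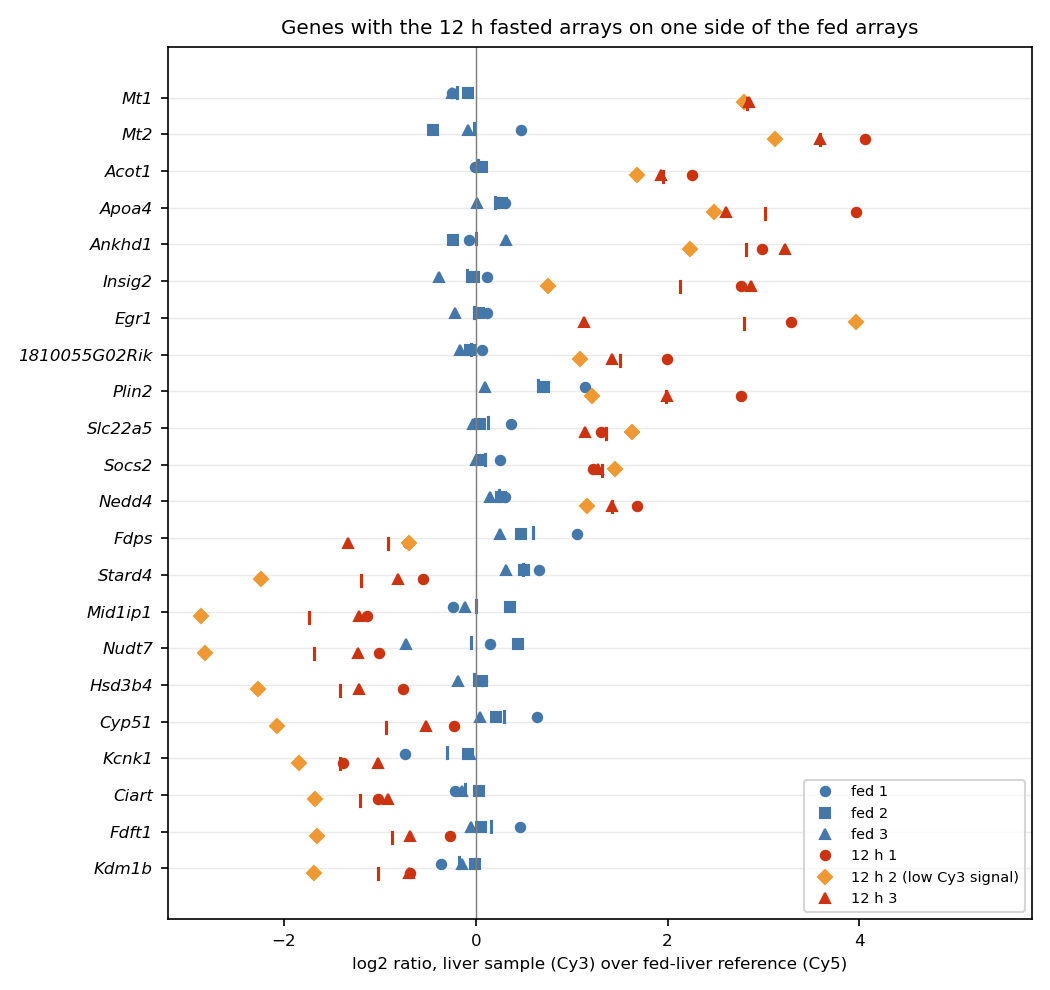
Log2 ratio of sample over reference on each of the 6 arrays, for Mt1, Mt2, Acot1 and the 9 other genes with the largest increases and the 10 genes with the largest decreases whose groups did not overlap. Blue points are fed arrays, red and orange points fasted arrays, and short lines the group means. The orange diamond is fasted replicate 2, which lay with the other fasted arrays for Mt1 and Mt2 and beyond them for 9 of the 10 genes that were lower.

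Apoa4, an apolipoprotein of triglyceride-rich particles, had log2 ratios of 0.31, 0.28 and 0.02 on the fed and 3.96, 2.48 and 2.61 on the fasted arrays, a difference of 2.82 (SE 0.63, unadjusted p = 0.000944). Insig2, which holds the SREBP precursor in the endoplasmic reticulum, had 0.11, -0.02 and -0.38 against 2.77, 0.75 and 2.87. Its fasted arrays were all above the fed ones, but replicate 2 much less so. Egr1, an immediate-early transcription factor, had 0.12, 0.04 and -0.21 against 3.29, 3.97 and 1.13. Plin2, which coats lipid droplets, had 1.14, 0.71 and 0.10 against 2.76, 1.21 and 1.99, and fed replicate 1 nearly reached fasted replicate 2. With loess normalization within arrays the groups of Plin2 overlapped, fed replicate 1 being at 1.22 and fasted replicate 2 at 0.96. By the software's log ratio they overlapped too, at 1.29 and 1.08. Slc22a5, the carnitine transporter of the plasma membrane, had 0.37, 0.04 and -0.03 against 1.30, 1.63 and 1.14, a 2.34-fold difference with little spread within either group (unadjusted p = 0.000606). Socs2, an inhibitor of growth-hormone signalling, was 2.32-fold higher by the probe that met the rule (probe 18463). Its other 2 probes differed by 0.26 and -0.27 on the log2 scale. Nedd4, a ubiquitin ligase, was 2.27-fold higher by the probe that met the rule (probe 22316), and its other 3 probes differed by 0.57, -0.18 and 0.43. The probe listed as 1110004O12Rik, named Ankhd1 in RefSeq, was 7.01-fold higher, and the other 2 Ankhd1 probes differed by 0.10 and 0.23, so that the value belongs to that probe and not to the gene. The gene 1810055G02Rik was 2.94-fold higher by 1 probe, with 0.45 on the log2 scale by the other. Without fasted replicate 2, Apoa4 was 8.49-fold higher, Insig2 7.53-fold, Plin2 3.31-fold and Slc22a5 2.14-fold. Egr1 was then 4.68-fold higher, by a log2 fold change of 2.23. The probes of Socs2, Nedd4, Ankhd1 and 1810055G02Rik that met the rule were 2.21-fold, 2.48-fold, 8.59-fold and 3.39-fold higher without it.

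Of the 10 genes with the largest decreases, 4 belonged to the list for cholesterol synthesis and uptake. That list held 33 of the 19840 probes tested, and it was chosen with earlier results of these data known. Fdps, which makes farnesyl diphosphate, had log2 ratios of 1.05, 0.47 and 0.26 on the fed arrays and -0.71, -0.69 and -1.33 on the fasted ones, a 2.84-fold lower level (log2 difference -1.50, SE 0.29, unadjusted p = 0.00031). Stard4, a carrier of cholesterol between membranes, had 0.66, 0.50 and 0.31 against -0.54, -2.24 and -0.81. Cyp51, the lanosterol demethylase, had 0.64, 0.22 and 0.05 against -0.22, -2.08 and -0.52, and Fdft1, the squalene synthase, 0.46, 0.06 and -0.05 against -0.27, -1.65 and -0.68. In these 3 genes the low-signal array was the lowest, and without it the log2 differences were -1.17, -0.67 and -0.63. The second Cyp51 probe differed by -0.29 and the other 2 Stard4 probes by -0.13 and -0.41. Mid1ip1, which activates acetyl-CoA carboxylase for fatty-acid synthesis, had -0.23, 0.36 and -0.11 against -1.13, -2.87 and -1.22. Nudt7, a peroxisomal enzyme that cleaves CoA, had 0.15, 0.44 and -0.72 against -1.01, -2.82 and -1.23. The remaining genes were Hsd3b4, a hydroxysteroid dehydrogenase (2.63-fold lower), Kcnk1, a potassium channel (2.17-fold, with -0.23 on the log2 scale by its other probe), Ciart, a repressor of the circadian clock (2.13-fold), and Kdm1b, a histone demethylase (1.80-fold). Without fasted replicate 2, the log2 differences were -1.61 for Fdps, -1.18 for Mid1ip1, -1.07 for Nudt7, -0.97 for Hsd3b4, -0.91 for Kcnk1, -0.86 for Ciart and -0.52 for Kdm1b. The Cy5 reference signal of Kdm1b was higher by 0.63 on the fasted arrays (unadjusted p = 0.0221), and by 0.81 without both low-signal arrays, and the part of that in its ratio was not tested. Hsd3b4 and Stard4 were each not well above background on 1 fasted array.

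The number of probes that passed depended on the arrays and on the settings. The fit pools the spread over the 4 groups, and the median SD of a probe's ratio was 0.145 in fed, 0.403 in 12 hours, 0.306 in 24 hours and 0.121 in 72 hours fasted liver. With both low-signal arrays left out, 343 of 19919 probes (1.72%) were called higher and 178 (0.894%) lower, among them the 3 probes called without fasted replicate 2 alone. They represent 270 and 98 genes with a symbol. With all arrays kept, limma's array quality weights gave 1092 higher and 818 lower, and the day of quantification as a block gave 2320 and 2358. The fits with weights or with the block have fold changes of their own. With the 10 arrays left after dropping both low-signal ones, the fold changes equal those without fasted replicate 2 alone. Only the estimate of the spread, and thereby the p-values, differ between these 2 fits. Fasted replicate 2, which was no part of the fit on 10 arrays, mostly went the other way for the probes called there. It lay above the fed mean for 97 of 329 measured probes called higher, and below it for 27 of 173 called lower. Within the day it shared with fed replicate 1, it was higher than that array for 81 of 326 and lower for 25 of 173. In the fit with the day as a block, fed and fasted arrays are linked only through the first day, which held both low-signal arrays. There, 268 of 342 probes called higher had a negative difference, 84 were called lower and 7 higher. Of the 178 called lower, 151 had a positive difference, 101 were called higher and 10 lower. Among the genes named below, the call turned to lower with the block for Acadm, Eci1, Mttp, Klf9, Lamp2, Dcn, Ndufa10 and Rpl5. It turned to higher for Cd36, Rpl30, Mkrn3, Tyk2, Magi3, 3110040N11Rik and Invs. The calls of Mt2, Acot1, Fdps, Stard4 (probe 8754), Mid1ip1, Hsd3b4 and H2-Ab1 were made in the same direction in both fits. Mt1 and Bhmt each had a value on only 1 array of a group in the fit on 10 arrays. They differed by 3.05 and 2.88 there and by 3.00 and 1.74 with the block. The median difference was below 0 with the block in 23 of the 27 pathway lists. What follows on these calls thus rests on fasted replicates 1 and 3, whose day of quantification held no fed array, and the part of that day in the values was not tested.

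**Figure D2:**
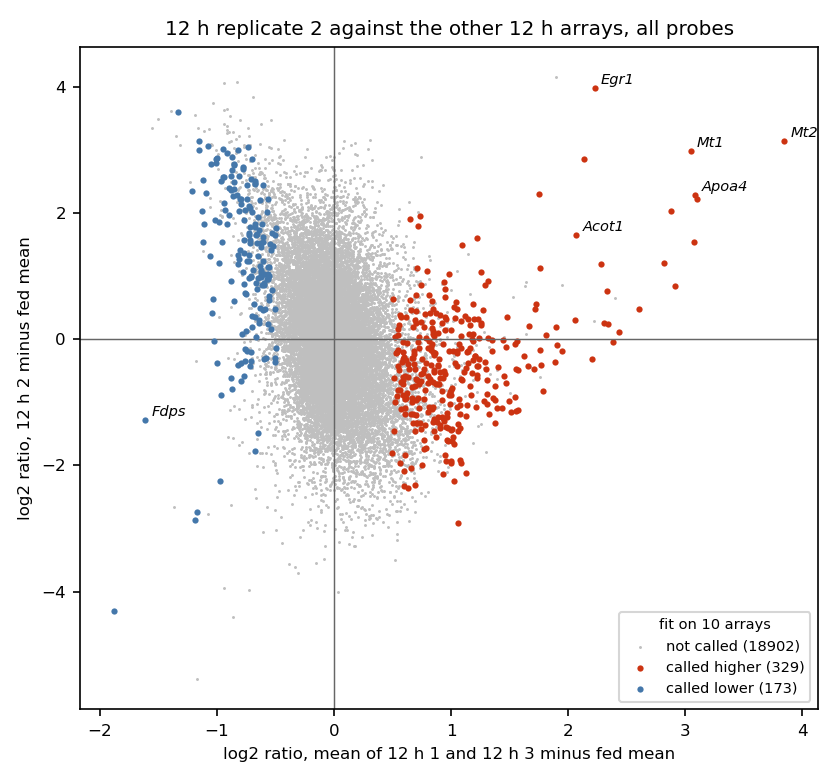
Each point is 1 of the 19404 probes measured on fasted replicate 2. The x axis gives the log2 ratio of the other 2 fasted arrays minus the fed mean and the y axis that of fasted replicate 2 minus the fed mean, with probes called in the fit on 10 arrays in red (329) and blue (173). Mt1, Mt2, Acot1, Apoa4, Egr1 and Fdps have the same sign on both axes, whereas 232 of the 329 red points lie below 0 and 146 of the 173 blue points above 0 on the y axis.

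Of the list for mitochondrial fatty-acid oxidation and the carnitine shuttle, 5 of 16 probes were called higher and 0 lower without the low-signal arrays, and 16 of 16 had a positive difference without fasted replicate 2, with a median of 0.65 on the log2 scale against -0.03 over all 19919 probes. With that array in the fit, 11 of the 16 were positive and the median was 0.32, with the day as a block the median was -0.82, and between the arrays that shared a day it was -1.09. The 5 were Acsl1, Hadhb, Slc22a5, Acadm and Eci1. Acsl1, which activates long-chain fatty acids, rose by 1.95 (adjusted p = 0.00821 without both low-signal arrays). Hadhb, a subunit of the trifunctional protein, had log2 ratios of 0.41, 0.40 and -0.26 on the fed arrays, 1.65 and 1.62 on fasted replicates 1 and 3, and -0.40 on replicate 2. Acadm, the medium-chain acyl-CoA dehydrogenase, had 0.38, 0.49 and -0.09, then 1.26 and 1.38, and -1.08 on replicate 2. With the day as a block, Acadm differed by -1.31 (adjusted p = 0.0268). Cpt2, the inner carnitine palmitoyltransferase, differed by 1.24 (adjusted p = 0.057) and was not called.

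Of the peroxisomal and PPAR-alpha list, 3 of 14 probes were called higher and 0 lower (median 0.69 without and 0.58 with fasted replicate 2). Among them were Acot1 and Ehhadh, an enzyme of peroxisomal beta-oxidation. Ehhadh had log2 ratios of 0.19, 0.46 and -0.34 in fed liver and 3.02, 0.59 and 2.39 in fasted liver. The low-signal array lay above the fed ones by these values alone. With loess normalization within arrays it was at 0.51, below fed replicate 2 at 0.55. By the software's log ratio it was at 0.56, below fed replicate 2 at 0.60. Ehhadh differed by 1.90 on all arrays (limma, unadjusted p = 0.0108) and by 2.60 without replicate 2 (adjusted p = 0.693). It was called without both low-signal arrays (adjusted p = 0.00706). Among genes of lipid droplets and lipoproteins, 4 of 17 probes were called higher (Apoa4, Lpin1, Plin2 and Mttp) and 1 lower (Cd36, a fatty-acid transporter, -0.60), although Cd36 was at 2.42 on replicate 2. Lpin1, a phosphatidate phosphatase and coactivator, had -0.39, -0.62 and -0.05 against 1.49, -0.40 and 2.57.

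Of the urea cycle list only 4 of 9 genes had a probe, and 2 of 6 probes were called higher (median 0.97 without and 0.55 with fasted replicate 2). Asl, argininosuccinate lyase, had log2 ratios of 1.14 and 0.96 on fed replicates 1 and 2 and of 3.15, 0.69 and 2.72 on the fasted arrays. Its fed ratios were near 1 although both channels held fed-liver RNA, and the part of that in the difference was not tested. Slc25a13, the mitochondrial aspartate-glutamate carrier, rose by 0.84. Of 19 probes for amino-acid catabolism, 4 were called higher and 0 lower (Got1, Oat, Dbt and Prodh), with a median of 0.52 without and 0.25 with that array. Got1, the cytosolic aspartate aminotransferase, was measured by a pair of probes, of which 1 had -0.14, 0.30 and -0.18 against 2.43, 1.20 and 3.19, and the other 0.04, -0.05 and 0.04 against 1.36, 0.86 and 1.93. In both, all fasted arrays were above all fed arrays. The first was called without the low-signal arrays (adjusted p = 0.0355) and the second was not (adjusted p = 0.0764). Oat, ornithine aminotransferase, had -0.20, 0.46 and -0.67 against 1.72, 0.35 and 1.44. Prodh, proline dehydrogenase, had 0.32, 0.21 and 0.02 against 1.33, 0.66 and 1.14, again without overlap.

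Of 20 probes for methionine and cysteine metabolism, 5 were called higher and 0 lower, with a median of 0.46 without and 0.09 with fasted replicate 2. Among them were Bhmt, Mat1a, Ahcy and Cdo1. Bhmt, which remethylates homocysteine with betaine, had a value on fed replicate 3 alone (-0.60), against 2.28, 1.44 and 2.28 on the fasted arrays, and its spot was saturated on 2 fasted arrays. Mat1a, the liver S-adenosylmethionine synthetase, had 1.01 and 0.96 on fed replicates 1 and 2 and 3.61 and 3.21 on fasted replicates 1 and 3. Ahcy, which hydrolyses S-adenosylhomocysteine, had 0.47 and 0.89 against 2.06 and 2.11 on the same arrays. Neither gene had a value on fed replicate 3 or fasted replicate 2. Of 7 probes for gluconeogenesis, 3 were called higher and 0 lower (median 0.90 without and 0.46 with fasted replicate 2). Pck1, the phosphoenolpyruvate carboxykinase, had 0.31 and 0.30 on fed replicates 1 and 2 and 1.17 and 1.46 on fasted replicates 1 and 3, a 2.02-fold increase, while its Cy5 reference signal was higher by 0.92 on the fasted arrays. Gk, glycerol kinase, rose by 1.36 and Gpd1, glycerol-3-phosphate dehydrogenase, by 1.35.

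**Figure D3:**
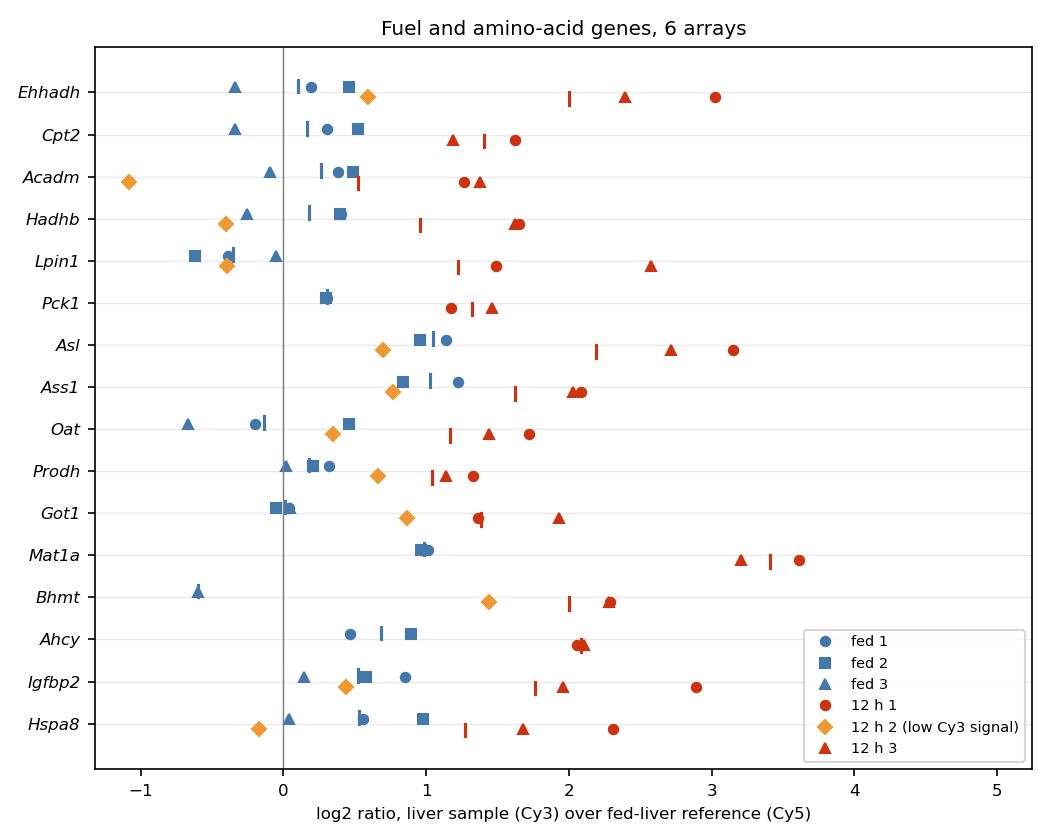
Log2 ratio of sample over reference on each of the 6 arrays for 16 genes, most of fatty-acid oxidation, gluconeogenesis and amino-acid metabolism, with Igfbp2 and Hspa8. Blue points are fed arrays, red points fasted replicates 1 and 3, orange diamonds fasted replicate 2 and short lines the group means over all measured arrays. Fasted replicates 1 and 3 lay to the right of the fed arrays. Replicate 2 lay among or below the fed arrays for Acadm, Hadhb, Lpin1, Asl, Ass1, Oat, Igfbp2 and Hspa8. It lay above them for Ehhadh, Prodh, Got1 and Bhmt, and the other genes had no value on it.

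Among hormone-dependent genes, 5 of 18 probes of glucocorticoid and cAMP targets were called higher and 0 lower without the low-signal arrays, namely Mt1, Mt2, Fkbp5, Klf9 and Pck1. The median was 0.68 without and 0.10 with fasted replicate 2. Fkbp5, a co-chaperone of the glucocorticoid receptor, had log2 ratios of 0.10, 0.12 and 0.20 against 0.90 and 2.48 on fasted replicates 2 and 3, the spot of replicate 1 having been left out, so that its call rests on replicate 3 alone. Klf9, a transcription factor, rose by 1.32. Tsc22d3, another glucocorticoid target, differed by 0.66 without replicate 2 and by -0.20 with it and was not called. In the insulin and growth-factor list, 2 of 30 probes were called higher, 1 each for Igfbp2 and Igf1. Igfbp2, a binding protein of insulin-like growth factors, had 0.86, 0.57 and 0.15 against 2.89, 0.43 and 1.96. Of the pair of Igf1 probes, 1 differed by 0.98 (adjusted p = 0.0573) and the other by 1.06 (adjusted p = 0.0453), and on replicate 2 they were at -0.84 and -2.77. With the day as a block the first differed by -1.20 (adjusted p = 0.0401) and the second by -2.18 (adjusted p = 0.0562).

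The cholesterol list was the only one of the 27 pathway lists in which probes called lower outnumbered those called higher. Of 33 probes, 5 were called lower without the low-signal arrays and 1 higher, and the median difference was -0.25 without and -0.39 with fasted replicate 2. Those that fell were Msmo1, Fdps, Sqle and 2 probes of Stard4, and the one that rose was Insig2, which opposes the pathway. On fasted replicate 2, Stard4 probe 10018 was at 1.67 and the called Sqle probe at 0.49, above their fed means of -0.15 and 0.30. Fdps and Stard4 probe 8754 were below their fed means there, at -0.69 and -2.24. Msmo1, the sterol methyl oxidase, fell by 1.88 on the log2 scale, with a fed value on replicate 1 alone. Sqle, squalene epoxidase, was lower by 0.70 in the probe reported first, and the other 3 of its probes differed by 0.02, -0.33 and -0.10. Of 19 probes for fatty-acid and triglyceride synthesis, 0 were called in either direction, with limma and without the low-signal arrays. Fasn, the fatty-acid synthase, had 0.00, -0.13 and -0.01 against -0.28, -0.70 and -0.32 (log2 difference -0.39, limma, unadjusted p = 0.0525). Its second probe differed by -0.15. Without fasted replicate 2 these differences were -0.26 and 0.16. Scd1, the stearoyl-CoA desaturase, had 0.41, 0.27 and -0.15 against -0.38, -2.85 and 0.21, so that most of its difference of -1.19 came from the low-signal array.

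**Figure D4:**
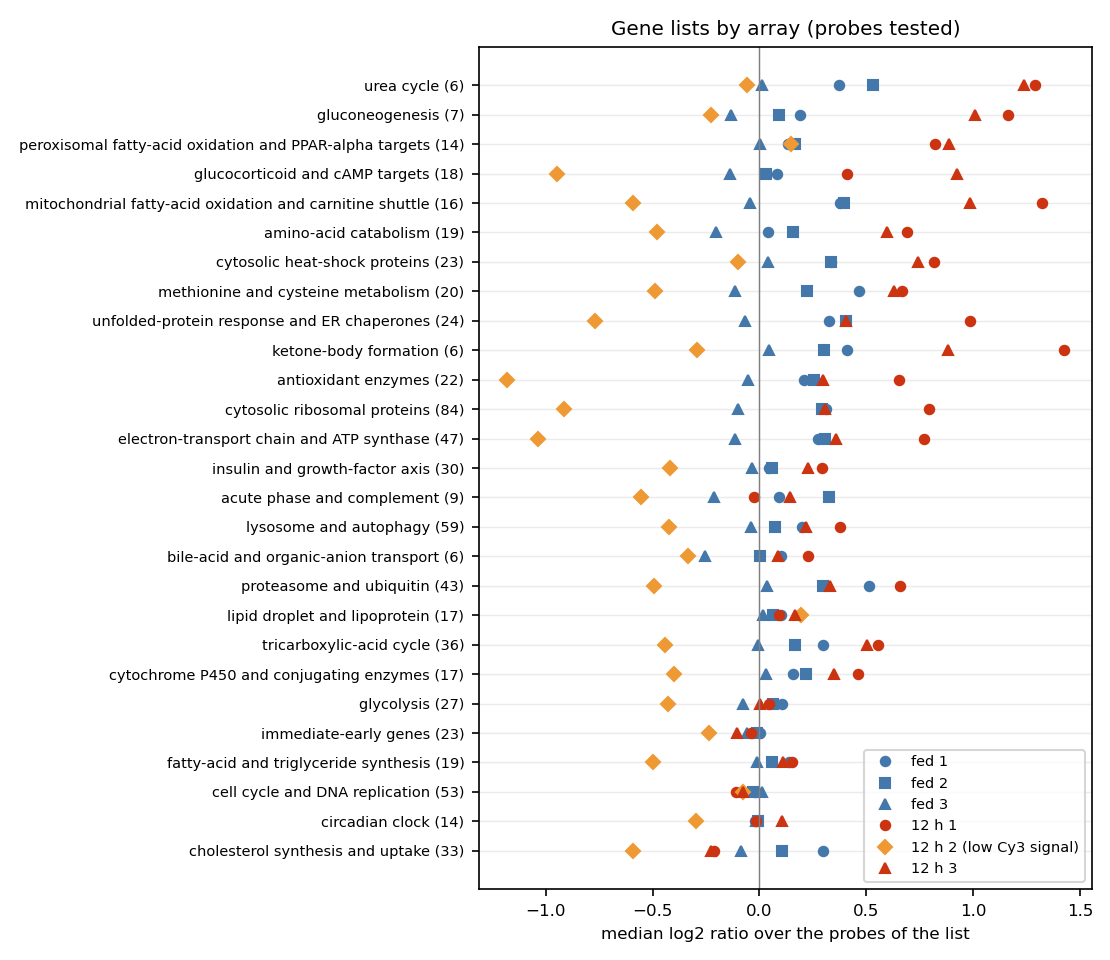
Median log2 ratio over the tested probes of each of 27 gene lists, on each of the 6 arrays, sorted by the median difference without fasted replicate 2, with the number of probes in brackets. Fasted replicates 1 and 3 (red) lay above all fed arrays (blue) in many lists. Among these were the urea cycle, gluconeogenesis, both fatty-acid oxidation lists and ketone-body formation. Lists outside fuel metabolism were among them too, such as antioxidant enzymes, cytosolic heat-shock proteins, and lysosome and autophagy. Both replicates lay below all fed arrays for cholesterol synthesis and uptake, and also for cell cycle and DNA replication. Fasted replicate 2 (orange) had the lowest median of the 6 arrays in most lists.

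Of the stress lists, 6 of 23 probes for cytosolic heat-shock proteins were called higher and 0 lower (median 0.46 without and 0.16 with fasted replicate 2), of which 3 were probes of Hsp90aa1 with log2 differences of 1.29 to 1.55, while its other probe differed by -0.30. Hspa8, the constitutive chaperone, had 0.56, 0.98 and 0.04 against 2.31, -0.17 and 1.68, and its Cy5 signal was lower by 0.70 on fasted replicates 1 and 3. For the unfolded-protein response, 0 of 24 probes were called by limma, with a median of 0.44 without and -0.02 with replicate 2. Hspa5, its best known chaperone, had 0.43 and 1.27 on fed replicates 1 and 2 and 2.19, -0.24 and 1.26 on the fasted arrays. The second Hspa5 probe (probe 19856) went the other way, with -0.62, 1.11 and -0.41 on the fasted arrays. Without fasted replicate 2 the probes differed by 0.87 and -0.39. Of 59 probes for lysosome and autophagy, 5 were called higher (Sqstm1, Lamp2, Map1lc3b, Gabarapl1 and Ulk1) and 1 lower (Tfeb). Sqstm1, the cargo receptor p62, had 0.37, 0.11 and -0.08 against 1.35, 0.13 and 1.27.

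For the tricarboxylic-acid cycle, 4 of 36 probes were called higher and 0 lower, among them probes of Idh3b and Ogdh, subunits of dehydrogenases of the cycle. Over all probes, 1.72% were called higher and 0.894% lower without both low-signal arrays. The cycle's list had a median of 0.10 without and -0.03 with fasted replicate 2, with 21 and 16 probes positive. Of 47 probes for the electron-transport chain and ATP synthase, 1 was called higher (Ndufa10), and of 84 for cytosolic ribosomal proteins, 1 higher (Rpl5) and 1 lower (Rpl30). In these last 2 lists, 44 and 70 probes had a positive difference without fasted replicate 2, with medians of 0.26 and 0.30. With that array in the fit the medians were -0.16 and -0.03, and 13 and 41 probes had a positive difference. The sign of these lists, and of the tricarboxylic-acid cycle, thus depended on 1 array. Its own difference from fed replicate 1 had a median of -1.49 for the electron-transport chain and -1.15 for the ribosomal proteins.

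Fasted replicate 2 was not below the fed mean for 146 of the 173 measured probes called lower without the low-signal arrays. Among these were the probes of 6 genes described here. The probes of Mkrn3, Tyk2, Magi3, 3110040N11Rik and Invs were at -1.08 to -1.75 on fasted replicates 1 and 3 and at 2.20 to 2.78 on replicate 2. Acsl3, a long-chain acyl-CoA synthetase, had 0.25, 0.19 and 0.25 in fed liver and -0.98, 0.86 and -0.62 in fasted liver. Its other probes differed by -0.27 and 0.20 without the low-signal arrays and were not called. In the reference channel, which carried the same RNA on all arrays, the 6 called probes were higher on fasted replicates 1 and 3. They differed from the fed arrays by 0.18 to 1.20, and the part of that in their ratios was not tested. H2-Ab1, an MHC class II chain of antigen-presenting cells, had 0.39, 0.23 and -0.46 against -0.98 and -1.36 on fasted replicates 1 and 3, a 2.33-fold decrease (adjusted p = 0.0259). It was the only one of 20 macrophage and leukocyte probes that was called. Their median difference was -0.15 without and -0.37 with fasted replicate 2, and the summarised ratio was 0.11, 0.02 and -0.03 on the fed and 0.02, -0.64 and -0.05 on the fasted arrays. In whole liver, fewer cells of a type and less RNA per cell cannot be told apart.

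Of the other cell type markers, 1 of 8 endothelial probes (Ramp2, 1.32, by 1 of 2 probes) and 1 of 11 stellate-cell and fibroblast probes (Dcn, 1.01) were called higher. The medians of these lists differed by -0.05 each without fasted replicate 2. The 8 hepatocyte probes had a median difference of 0.01, the 4 bile-duct probes -0.03 and the 2 erythroid probes -0.02, and none of these was called. All probes of these lists were well above background on all 6 arrays. Pancreatic acinar cells were represented by 1 probe, which was not called.

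As a measure of what differed between the arrays rather than the livers, the reference channel alone was tested in the same way. It is the signal of 1 channel and not a ratio, so that its counts do not give the array noise within the ratios. With limma, 0 of 19840 probes were called (0% in each direction) and 756 had an unadjusted p under 0.05, close to the 774 found for the ratios on all arrays. Without both low-signal arrays, 0 were called higher and 9 lower (0.0452%), against 343 and 178 for the ratios. An unadjusted p under 0.05 was then reached by 2744 probes in the reference and by 4386 in the ratios, and an unadjusted p under 0.01 with a 1.4-fold difference by 498 higher and 320 lower in the reference, against 809 and 616 in the ratios. Of the genes named above as called without these arrays, the reference signal was lower by 0.96 for Igfbp2, 0.78 for Gpd1, 0.79 for Idh3b, 1.00 for Ndufa10, 0.70 for Rpl5, 0.69 for Gabarapl1 and 0.60 for Dcn, while their ratios were higher by 1.90, 1.35, 0.82, 1.09, 0.97, 0.90 and 1.01. It was higher by 0.49 for Cd36 and 0.45 for Rpl30, whose ratios were lower. The part of the reference in these ratios was not tested. The reference signal of Mt1 differed by 0.63, of Mt2 by -0.17 and of Acot1 by 0.13 between the fasted and fed arrays, against ratio differences of 3.02, 3.61 and 1.93.

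The 12 hours values were then set beside the later times, measured on other pools but against the same fed arrays. No probe differed between 24 and 12 hours (0 of 19040 called, 177 with an unadjusted p under 0.05) or between 72 and 12 hours (0 of 19951, 964) by limma at an adjusted p under 0.05, so that the order of the time points is a description. The log2 fold change against fed was 3.02, 2.47 and 3.51 for Mt1 and 3.61, 3.17 and 3.80 for Mt2 at 12, 24 and 72 hours. It was 1.93, 1.68 and 0.52 for Acot1, and the 72 hours value differed from that at 12 hours by -1.41 (adjusted p = 0.68). For Plin2 it was 1.34, 0.58 and -0.99, for Ehhadh 1.90, 1.06 and 0.45, and for Slc22a5 1.23, 0.83 and 0.04. Apoa4 had 2.82, 2.90 and 3.60 and Fdps -1.50, -1.95 and -1.57. The values of Nudt7 were -1.64, -2.25 and -3.40.

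**Figure D5:**
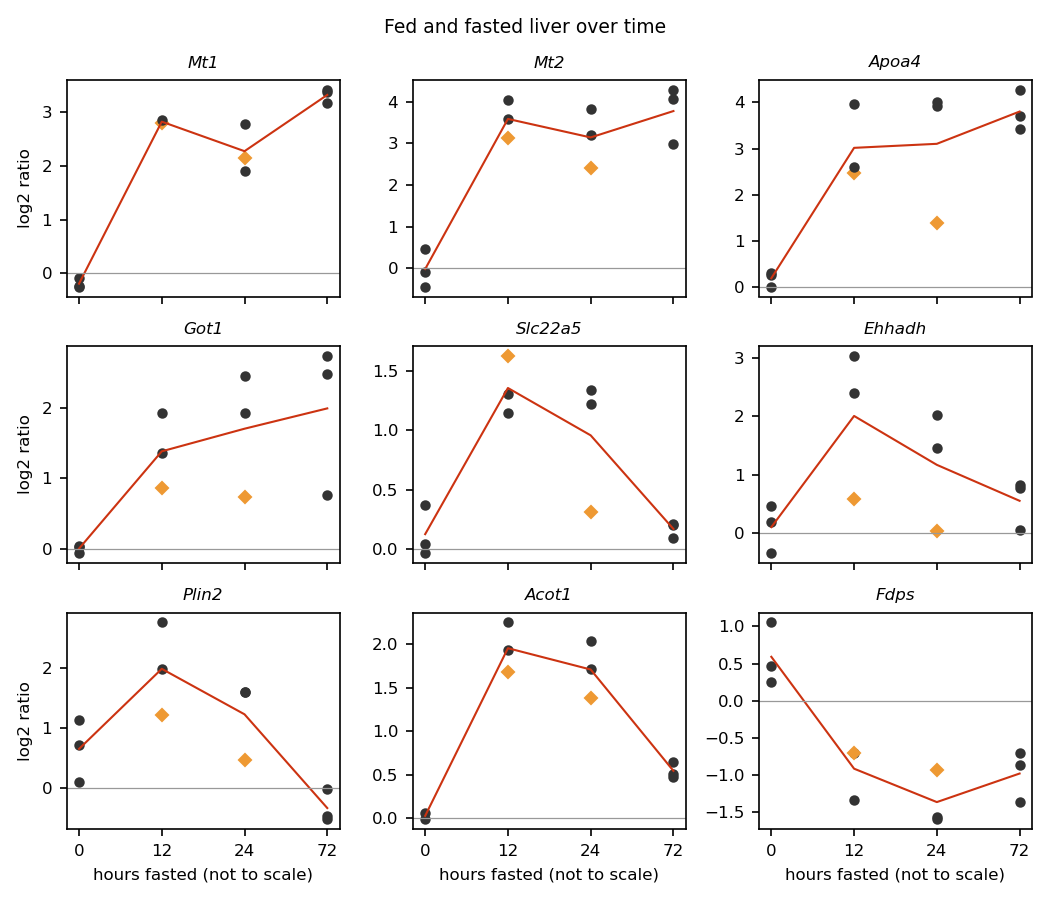
Log2 ratio of sample over reference in fed liver (0 hours) and at 3 times without food (12, 24 and 72 hours) for 9 genes, each point 1 array and the red line the group mean. Orange diamonds are the low-signal arrays of the 12 and 24 hours groups. Mt1 and Mt2 stayed above 1.5 at every fasting time, whereas the 72 hours means of Acot1, Slc22a5, Ehhadh and Plin2 lay below those at 12 hours, differences that did not pass the test.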

How the data were processed

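Per the file headers, the deposited files hold intensities (medians over the pixels of a spot, and of its surroundings, in both channels), quantified with Feature Extraction A.6.1.1. They also hold flags and dye-normalized log10 ratios (Cy5 over Cy3). The value table the authors deposited gives the same log10 ratios in the opposite direction (largest difference 4.92e-08). The authors quantile-normalized background-subtracted signals and tested by a Split-Factor ANOVA, not run here.

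Here, signals were corrected with limma's normexp method (offset 50), quantile-normalized over 24 channels and expressed as log2 ratios. Outlier spots were set to missing. Tested were probes whose Cy3 signal exceeded background clearly, by the scanner flag, throughout 1 or more groups. The 4 groups were fitted over 12 arrays with lmFit and eBayes (limma 3.58.1, R 4.3.3), with Benjamini-Hochberg adjustment over all probes tested. The fit was tested on simulated data. Files came in 2 annotation layouts, and probes with conflicting names (280) were left unnamed, so that 11940 probes had a RefSeq symbol (GRCm38.p6).

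Named were called probes, the 10 largest increases and decreases without overlap, and 70 genes fixed by name (16 without a probe), of which some are not reported here. Members and lists were chosen with earlier results of these data known. The 10 largest changes without both low-signal arrays were added after seeing the data. Alternatives are given at the end. Sample numbers were taken from the titles, and p-values measure the spread between pools.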

Additional observations from a re-analysis of the deposited data

How the results depend on the processing

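With each of the 12 arrays left out in turn, 0 to 3 probes were called higher and 0 lower, and 0 to 1 in the reference channel (1 without fed replicate 1). No probe was called higher without fed replicate 1, fed replicate 3 or 12 h replicate 3. Mt1 was called in 9 of these 12 fits (adjusted p = 0.000826 to 0.0659) and Mt2 in 4 (adjusted p = 0.0293 to 0.432), with log2 fold changes of 2.99 to 3.07 and 3.38 to 3.86. Over 26 alternatives, those added after seeing the data included, Mt1 was called in 19 and Mt2 in 14, with log2 fold changes of 2.76 to 3.64 and 2.52 to 4.19 and adjusted p up to 0.685 and 0.432.

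Probes called higher and lower numbered 343 and 178 when both low-signal arrays were dropped, 0 and 0 with the 6 arrays only, 556 and 290 with these without the low-signal array, and 76 and 56 at an unadjusted p under 0.01. They were 1 and 0 with loess within arrays, 0 and 0 with the software's log ratio, 0 and 0 with the sample channel alone, 3 and 0 with plain background subtraction or with outlier spots kept, and 1 and 0 without the filter on dim probes. Array quality weights gave 1092 and 818, and a block for the day of quantification gave 2320 and 2358. In the reference channel these last 2 settings gave 1475 and 10, and leaving out both low-signal arrays gave 9. Chosen after seeing the data, loess and the software's log ratio without both low-signal arrays gave 504 and 335, and 499 and 281.

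Equal replicate numbers did not mark shared animals. The deviations of same-numbered fed and fasted arrays correlated at 0.06, -0.39 and -0.09, and a replicate block gave 2 probes called higher and 0 lower.

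Direction turned for 7 named probes that were called under an alternative. Without both low-signal arrays, in 6 arrays without the low-signal array, with array weights, and without both low-signal arrays under loess and under the software's log ratio, the log2 fold changes were -1.05, -1.05, -1.08, -1.16 and -1.39 for Mkrn3, -1.07, -1.07, -1.18, -1.15 and -1.22 for Tyk2, -1.12, -1.12, -1.03, -1.19 and -1.34 for Magi3, and -1.15, -1.15, -1.07, -1.17 and -1.22 for 3110040N11Rik. With the day as a block they were -1.31 for Acadm, -1.20 for Igf1 and 2.11 for Invs. The cause was not tested. The sign of the day-block fit and of 12 h replicate 2 minus fed replicate 1 opposed that on all arrays for 27 of 79 and 26 of 70 named probes. The low Cy3 signal of 12 h replicate 2 limits what its ratios can show.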
